A study of Mus musculus with 6 samples.

Results

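The 9 genes described here, Igf2, Insr, Igf1r, Irs1, Irs2, Pik3ca, Akt1, Akt2 and Foxo1, carry the insulin and insulin-like growth factor (IGF) signal from ligand to nucleus. They were taken by name from a list chosen with earlier results of these data known. All 9 were found among the 55401 gene identifiers of the count table and passed the filter on low counts. RNA was sequenced from islets of male C57BL/6 mice of about 20 weeks. The 3 KO libraries came from mice with Pdgfra fl/fl and Pdx1-Cre, a Cre recombinase under the promoter of a transcription factor of the pancreatic lineage, and the 3 control libraries from mice with Pdgfra fl/fl and no Cre. Both groups thus carry the floxed alleles, and no group carries Cre alone, so effects of Cre and of the deletion cannot be told apart. Whether each library is a separate animal is not stated in the labels, so every p-value refers to library spread, which may be technical.

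Insulin and the IGFs bind receptor tyrosine kinases at the cell surface, and the active receptors phosphorylate the insulin receptor substrates (IRS). These adaptors recruit phosphoinositide 3-kinase, whose lipid product brings AKT kinases to the membrane. AKT promotes growth and survival and keeps the FOXO transcription factors out of the nucleus, where they would act on genes of stress resistance and metabolism. In mice, Irs2 is needed to keep beta-cell mass.

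Levels are given as CPM, counts per 1000000 counts of a library after TMM scaling. The KO libraries held from 18247741 to 25039394 counts and the control libraries from 15026094 to 25299689. Pdgfra itself, the floxed gene, had 93, 25 and 125 counts in KO 1, 2 and 3, against 42, 88 and 116 in controls 1, 2 and 3. Counts summed over all its exons do not check a deletion of some of them. The libraries are labelled as beta cells, but no sorting is named: 10 beta-cell markers, led by Ins2, took 10.7% to 13.0% of counts in KO libraries and 7.99% to 15.1% in controls, while 12 acinar markers, led by Pnlip, took 14.7% to 26.4% in KO libraries and 19% to 33.9% in controls. A ribosomal RNA locus took 5.36%, 12.6% and 18.5% of counts in KO 1, 2 and 3, against 4.38%, 3.32% and 4.51% in controls 1, 2 and 3. KO 3, with the highest ribosomal RNA share, also had the lowest acinar share. In such bulk libraries, fewer cells of a type and less RNA per cell cannot be told apart.

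In the KO libraries both IRS genes stood above every control, at 1.71-fold for Irs1 and 1.58-fold for Irs2, while the receptors, the kinases, Foxo1 and Igf2 overlapped between the groups. Of the 9 genes, 0 passed an adjusted p of 0.05 over all 14212 genes tested (edgeR quasi-likelihood test), a threshold that 0.0704% of tested genes passed. At an unadjusted p under 0.05 there were 2 of the 9, Irs1 and Irs2, both higher in KO, against 7.37% of tested genes in either direction and 4.83% higher in KO. DESeq2 and limma-voom also called 0 of the 9, where they called 49 and 6 of the 14212 tested genes. DESeq2 gave Igf2 no adjusted p, so Igf2 could not be called there. Each had 2 of the 9 at an unadjusted p under 0.05, beside 699 of all tested genes with DESeq2 and 985 with limma-voom. Without the filter on low counts edgeR called 300 of 26297 tested genes, against 10 of 14212 with it. These 300 included Irs1 and Irs2. The same 2 were the genes whose groups did not overlap, where 7.94% of tested genes lay higher in KO without overlap and 13.9% did so in either direction. The median log2 fold change of the 9, KO over control throughout, was 0.03, beside -0.01 over all tested genes.

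**Figure D1:**
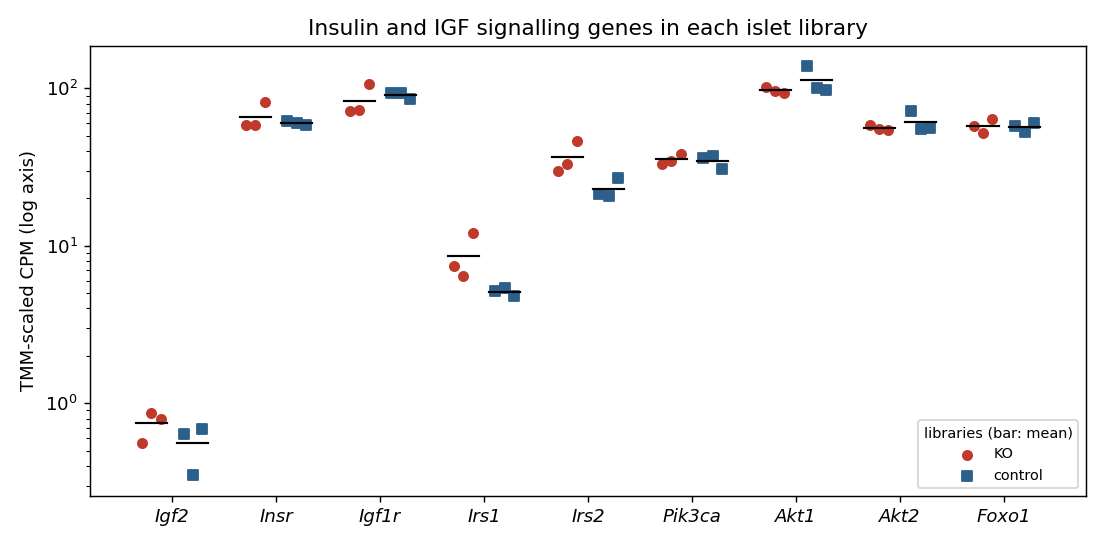
Level of each gene in each library as CPM, log axis, with 1 point a library, KO left of control and a bar at the group mean. Irs1 and Irs2 lie higher in all 3 KO libraries than in any control, and Igf2 is the lowest gene at under 1 CPM.

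Levels of different genes were compared per kilobase of exon. Akt1 was the highest, at 23.8 ± 1.06 CPM per kilobase in KO libraries and 27.4 ± 5.39 in controls (SD, n = 3 each). Akt2 came next at 7.90 ± 0.322 in KO and 8.57 ± 1.30 in controls, and then Foxo1 at 6.68 ± 0.685 in KO and 6.60 ± 0.420 in controls. Igf1r, Irs2 and Insr followed, with averages over all 6 libraries of 5.19, 4.71 and 4.60 CPM per kilobase, and then Pik3ca at 3.86. The ranges over the 6 libraries overlapped between Foxo1 and Igf1r, between Igf1r and Irs2 and between Irs2 and Insr, so the order of these neighbours is not beyond their spread. Ranges of neighbours did not overlap elsewhere in the order on the table's exon lengths. Irs1 stood well below Irs2, at 0.943 ± 0.325 in KO libraries and 0.558 ± 0.0351 in controls, and Igf2 was last, at 0.130 ± 0.0285 in KO and 0.0979 ± 0.0323 in controls.

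Irs1 and Igf2 share many exon bases with another gene of the table, which bears on their levels. Of the genes lying wholly inside the exons of another gene with at least 1000 counts, 142 of 142 on the opposite strand and 233 of 233 on the same strand had 0 counts in every library. Reads in shared bases thus appear to have been counted for neither gene. Irs1 shares 30.9% of its exon bases with Gm9747 on the opposite strand, and Igf2 shares 64.5%, mostly with Gm49394 on its own strand; both of these other genes were at 0 in all libraries. Over the bases that no other gene shares, the KO levels were 1.36 ± 0.471 CPM per kilobase for Irs1 and 0.367 ± 0.0804 for Igf2 (SD, n = 3), against 0.808 ± 0.0508 and 0.276 ± 0.0910 in controls. On that scale the order of the 9 genes was the same, but the ranges of Akt2 and Foxo1 overlapped and those of Foxo1 and Igf1r did not.

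Igf2 encodes the fetal growth factor that binds the IGF1 receptor, and is expressed from the paternal allele. It lies on chromosome 7, 142650766 to 142666816 (GRCm38, as are all coordinates here). It had 14, 14 and 21 counts in KO 1, 2 and 3, against 8, 6 and 21 in controls 1, 2 and 3. The highest KO and control counts were equal, and as CPM the groups overlapped. The log2 fold change was 0.36 (95% interval -0.48 to 1.2, SE 0.38, adjusted p = 0.838 by edgeR), an interval that spans 0.715-fold to 2.30-fold. It was 0.13 without control 2 and 0.61 without control 3.

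Insr, the insulin receptor gene (chromosome 8, 3122061 to 3279617), had 58.5, 58.3 and 81.8 CPM in KO 1, 2 and 3, against 62.4, 60.2 and 58.5 CPM in controls 1, 2 and 3. KO 3 was above all other libraries, and KO 1 and 2 were level with or just below the lowest control. Its log2 fold change was 0.13 (95% interval -0.17 to 0.44, SE 0.14, adjusted p = 0.835 by edgeR), and -0.05 without KO 3. Igf1r, the receptor for IGF1 and IGF2 (chromosome 7, 67952827 to 68233668), had 71.8, 73.1 and 106 CPM in KO 1, 2 and 3, against 93.4, 93.4 and 85.5 CPM in controls 1, 2 and 3. Here KO 1 and 2 lay below every control and KO 3 above every control. The log2 fold change was -0.11 (95% interval -0.45 to 0.22, SE 0.15, adjusted p = 0.870 by edgeR), and -0.32 (SE 0.09) without KO 3, where the adjusted p was 0.683.

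The balance of the 2 receptors did not overlap between the groups. The log2 ratio of Igf1r over Insr, each per exon length, was 0.01, 0.04 and 0.09 in KO 1, 2 and 3, against 0.29, 0.34 and 0.26 in controls 1, 2 and 3. Such a ratio does not depend on how a library is scaled. The KO libraries, at 0.04 ± 0.04, were all below the controls, at 0.30 ± 0.04 (SD, n = 3 each), a difference of -0.25. By an exact two-sided permutation test p was 0.1, the smallest that 3 against 3 can give, and 0.15 after adjustment over the 3 ratios computed, so this design cannot pass 0.05. The difference ran from -0.28 to -0.23 with each library left out in turn, KO 3 included. A ratio compares the 2 genes with each other, and does not say which of them would account for a difference.

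**Figure D2:**
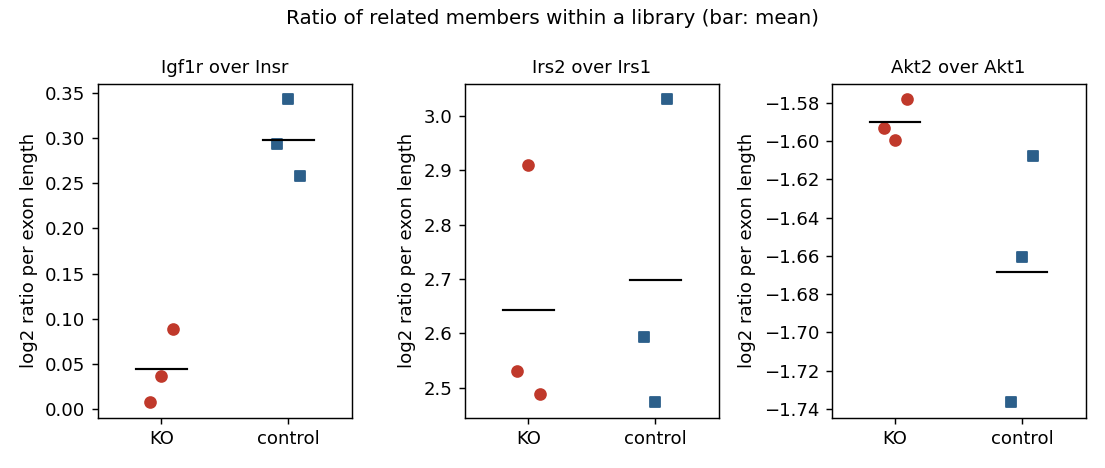
Log2 ratio of related genes per exon length within each library, with KO left of control, 1 point a library and a bar at the mean. The Igf1r over Insr ratio lies from 0.01 to 0.09 in KO and from 0.26 to 0.34 in controls, and the Irs2 over Irs1 ratio overlaps between the groups.

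Irs1 and Irs2 encode the adaptors that couple the receptors to phosphoinositide 3-kinase. Irs1 (ENSMUSG00000055980.2) lies on chromosome 1, 82233101 to 82291416. KO 1, 2 and 3 had 186, 103 and 316 of its counts, which is 7.44, 6.42 and 12 CPM, against 64, 93 and 145 counts in controls 1, 2 and 3, or 5.13, 5.41 and 4.77 CPM. All 3 KO libraries were above the highest control, KO 2 by the least and KO 3 by the most. Its log2 fold change was 0.77 (95% interval 0.26 to 1.29, SE 0.23, unadjusted p = 0.00765, adjusted p = 0.537 by edgeR). Irs2 (ENSMUSG00000038894.7) lies on chromosome 8, 10984681 to 11008458. KO 1, 2 and 3 had 743, 535 and 1226 of its counts, which is 29.7, 33.3 and 46.6 CPM, against 267, 357 and 820 counts in controls 1, 2 and 3, or 21.4, 20.8 and 27.0 CPM. Again each KO library exceeded each control, with the narrowest gap between KO 1 and control 3. Its log2 fold change was 0.66 (95% interval 0.27 to 1.05, SE 0.17, unadjusted p = 0.00387, adjusted p = 0.485 by edgeR).

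Both IRS values were largest in KO 3. Without KO 3 the log2 fold changes were 0.45 (SE 0.16) for Irs1 and 0.44 (SE 0.13) for Irs2, with the same direction. With the log2 level of the ribosomal RNA locus as a covariate they were 0.43 (SE 0.36) and 0.26 (SE 0.25). Both standard errors were larger than without it. The share of that locus was higher in every KO library than in any control, so its part cannot be told apart from genotype. Irs2 was ordered like the ribosomal RNA share within KO, while Irs1 was lower in KO 2 than in KO 1. The log2 ratio of Irs2 over Irs1 was 2.64 ± 0.23 in KO libraries and 2.7 ± 0.29 in controls (SD, n = 3 each). The groups overlapped in this balance of the 2 adaptors (p = 0.7 before and after adjustment, exact two-sided permutation test). The ratio uses the table's exon lengths, of which 30.9% for Irs1 is shared with Gm9747, and would be lower over unshared bases. Lengths are the same in every library, so they do not enter the difference between the groups.

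**Figure D3:**
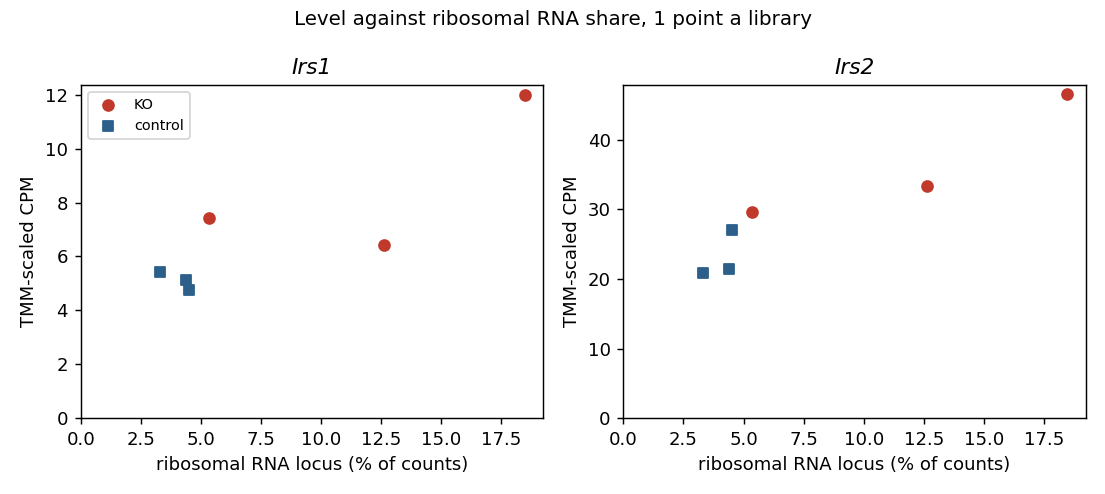
Level of Irs1 and of Irs2 in TMM-scaled CPM against the share of counts at a ribosomal RNA locus, with 1 point a library, KO as circles and control as squares. KO 3, at 18.5%, has the highest level of both genes. KO 1, at 5.36%, is above all controls in both genes and also in this share, as the controls lie between 3.32% and 4.51%.

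The promoters of Irs1 and Irs2 are shown because these are the 2 genes whose groups did not overlap. Each line gives the 250 bases before the transcription start of RefSeq (GRCm38.p6), 5′ to 3′ on the gene's strand, which is minus for both. The windows are chr1:82291440-82291689 for Irs1 and chr8:11008930-11009179 for Irs2. Capitals mark CACGTG, the palindromic E-box bound by basic helix-loop-helix factors.
Irs1: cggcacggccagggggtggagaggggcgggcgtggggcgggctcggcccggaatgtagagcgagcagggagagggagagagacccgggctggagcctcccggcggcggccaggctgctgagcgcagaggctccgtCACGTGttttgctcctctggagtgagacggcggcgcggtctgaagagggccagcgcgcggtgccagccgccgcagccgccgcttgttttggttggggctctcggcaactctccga
Irs2: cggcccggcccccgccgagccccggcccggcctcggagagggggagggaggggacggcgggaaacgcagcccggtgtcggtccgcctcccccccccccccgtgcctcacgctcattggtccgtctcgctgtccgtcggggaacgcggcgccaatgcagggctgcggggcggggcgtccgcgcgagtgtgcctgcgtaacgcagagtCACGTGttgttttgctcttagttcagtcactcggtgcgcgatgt
The E-box began 115 bases before the start in Irs1 and 44 bases before it in Irs2. It was searched for after these sequences had been read, and 6.02% of 32851 mouse promoter windows of this length hold it. The longest runs shared by the 2 windows have 10 bases. One of them, gtcacgtgtt, contains the E-box, and another, tgttttgctc, does not. Among the 15 windows of the 8 genes with an entry, which leave out Insr, no other held CACGTG. The FOXO core GTAAACA, searched on both strands of the 300 bases that include 50 after the start, was in 1 of the 15, an upstream start of Akt1, and in 3.65% of all windows. The cAMP response element TGACGTCA was in 0 of the 15 and in 1.79% of all windows. Matches of this kind describe letters and do not show binding.

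Pik3ca encodes the p110-alpha catalytic subunit of phosphoinositide 3-kinase (chromosome 3, 32397671 to 32468486). It had 33.3, 34.6 and 38.3 CPM in KO 1, 2 and 3, against 36.2, 37.2 and 30.7 CPM in controls 1, 2 and 3. The groups overlapped, with a log2 fold change of 0.03 (95% interval -0.20 to 0.27, SE 0.10, adjusted p = 0.95 by edgeR). Foxo1, the main FOXO factor of beta cells (chromosome 3, 52268336 to 52353221), had 57.7, 52.1 and 64.0 CPM in KO 1, 2 and 3, against 58.0, 53.1 and 60.3 CPM in controls 1, 2 and 3. KO libraries held both the highest and the lowest value. The log2 fold change was 0.02 (95% interval -0.21 to 0.25, SE 0.10, adjusted p = 0.969 by edgeR). Transcript levels do not report the phosphorylation or location of the FOXO1 protein.

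Akt1 and Akt2 encode the kinases at the centre of the pathway. Akt1 (chromosome 12, 112653821 to 112674884) had 102, 96.8 and 93.5 CPM in KO 1, 2 and 3, against 138, 101 and 98.0 CPM in controls 1, 2 and 3. Control 1 stood far above the other 5 libraries. The log2 fold change was -0.20 (95% interval -0.50 to 0.10, SE 0.14, adjusted p = 0.768 by edgeR), and -0.03 without control 1. Akt2, the kinase known for glucose uptake in muscle and fat (chromosome 7, 27591552 to 27640826), had 58.9, 55.6 and 54.5 CPM in KO 1, 2 and 3, against 71.8, 55.5 and 55.9 CPM in controls 1, 2 and 3. It too was highest in control 1, with a log2 fold change of -0.11 (95% interval -0.37 to 0.14, SE 0.11, adjusted p = 0.836 by edgeR) that was 0.01 without control 1. Control 1 also had the highest acinar share of counts, 33.9%. With an acinar covariate Akt1 was at -0.12 and Akt2 at -0.06. With the acinar genes removed from the table they were at -0.20 and -0.11. That removal leaves any Akt1 and Akt2 reads of acinar cells in place, so it cannot test their part. The log2 ratio of Akt2 over Akt1 was -1.59, -1.60 and -1.58 in KO 1, 2 and 3, against -1.74, -1.66 and -1.61 in controls 1, 2 and 3. The groups did not overlap, by a narrow gap (difference 0.08, exact two-sided permutation p = 0.1, adjusted p = 0.15). Without control 1 the difference was 0.04, and with each library left out in turn it ran up to 0.11.

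**Figure D4:**
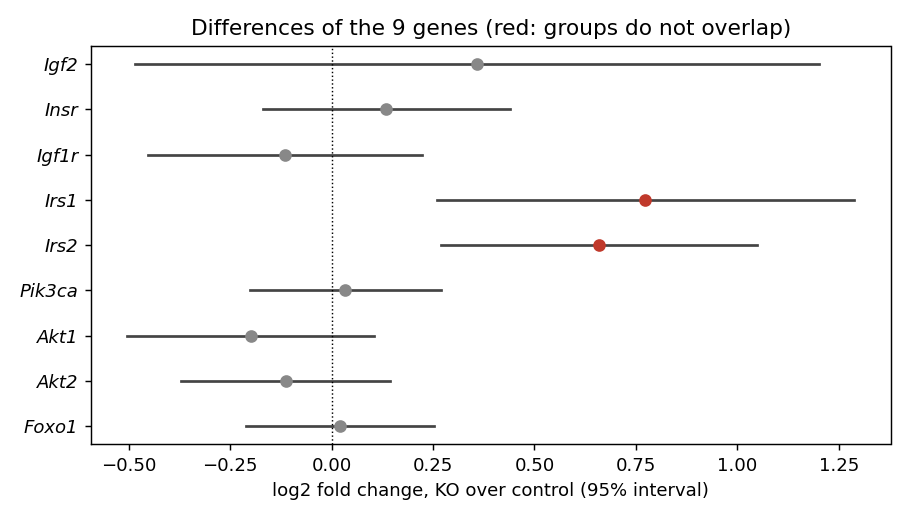
Log2 fold change of each gene, KO over control, from the edgeR fit, with its 95% interval and genes from ligand (top) to transcription factor. The intervals of Irs1 (0.26 to 1.29) and Irs2 (0.27 to 1.05) lie above 0, those of the other 7 genes hold 0, and Igf2 has the interval from -0.48 to 1.2.

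The other genes of the pathway were taken from 6 lists of 87 genes, of which 77 were tested. These lists too were chosen with earlier results of these data known. Of the 77, 0 passed the adjusted threshold (edgeR), beside 0.0704% of all tested genes. An unadjusted p under 0.05 was found for 12, 7 higher and 5 lower in KO. Among all tested genes 7.37% had one in either direction and 4.83% higher in KO. Among alternatives, DESeq2 called 2 of the 77, Trib3 and Cited2, beside 49 of all 14212 tested genes. Without the filter on low counts edgeR called 6 of the 77, beside 300 of 26297 tested genes. Positive values were found for 46 and negative values for 31, with a median log2 fold change of 0.05 beside -0.01 over all tested genes.

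Among ligands and binding proteins, 11 of 14 genes were tested, with 4 positive and 7 negative values and a median of -0.01. Ins1 and Ins2 are among them. The smallest p belonged to Igfbp3, a carrier that sequesters IGFs, with 45.3, 35.3 and 50.1 CPM in KO 1, 2 and 3, against 51.9, 61.9 and 57.7 CPM in controls 1, 2 and 3. Its groups did not overlap, and its log2 fold change was -0.39 (SE 0.13, adjusted p = 0.598 by edgeR). The value was -0.26 without KO 2, its lowest library, and -0.50 without KO 3. Igfbp4, another carrier, had a value of -0.39 (SE 0.35, adjusted p = 0.817), with its lowest level, 4.92 CPM, in KO 2. There 6 fibroblast markers also had their lowest sum, at 168, 43.1 and 219 CPM in KO 1, 2 and 3, against 183, 281 and 140 CPM in controls 1, 2 and 3, and the part of these cells was not tested. Without KO 2 the value of Igfbp4 was -0.04, and without KO 3 it was -0.78. Igfals, the acid-labile subunit of the circulating IGF complex, had a value of -0.10, and of -0.18 without KO 2 and -0.06 without KO 1. Igf1 had a value of -0.21, with 18.5 to 27.3 CPM in KO libraries and 14.5 to 41.8 CPM in controls. Its direction turned, to 0.27 without control 1 and 0.10 with the acinar covariate, and it was -0.52 without control 3. Igfbp1 and Igfbp2 had 0 counts in every library, and Igf2bp3 was too low to test.

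Among receptors and adaptors, 10 of 12 genes were tested, with 8 positive and 2 negative values and a median of 0.06. Grb10, an adaptor that inhibits both receptors, had 27.3, 26.8 and 31.9 CPM in KO 1, 2 and 3, against 38.6, 33.2 and 31.8 CPM in controls 1, 2 and 3, and a log2 fold change of -0.26 (adjusted p = 0.673 by edgeR, SE 0.11). The groups touched at KO 3 and control 3. Insrr, the insulin receptor-related receptor, had a value of 0.17 (SE 0.10) and Grb2, the adaptor that links receptors to RAS, of 0.11 (SE 0.08). Irs3 and Irs4 were not tested, with at most 4 counts of Irs3 in a library and 0 of Irs4 in all 6, so Irs1 and Irs2 were the IRS genes measured in these islets.

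All 12 listed genes of phosphoinositide 3-kinase and its lipid phosphatases were tested, with 8 positive and 4 negative values and a median of 0.10. At an unadjusted p under 0.05 (edgeR) there were 0, beside 7.37% of all tested genes in either direction. With 12 genes, a count of 0 does not set the list apart from that share. Pik3cg had a log2 fold change of 0.40 (SE 0.21), Pik3ip1, an inhibitor of the kinase, of 0.27 (SE 0.16), Pdpk1, the kinase that phosphorylates AKT, of 0.14 (SE 0.11) and the lipid phosphatase gene Inppl1 of 0.10 (SE 0.08). Their edgeR adjusted p ran from 0.727 to 0.801, and each overlapped between the groups. Pdpk1 was at 0.03 without KO 3 and turned to -0.07 with the ribosomal RNA covariate.

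In the AKT and mTOR list all 20 genes were tested, with 9 positive and 11 negative values and a median of -0.03. Trib3, a pseudokinase that binds AKT and a target of the stress factor ATF4, had 1.40, 1.31 and 1.03 CPM in KO 1, 2 and 3, against 3.85, 2.85 and 3.88 CPM in controls 1, 2 and 3. It was lower in each KO library than in any control, at a log2 fold change of -1.51 (adjusted p = 0.0923 by edgeR, SE 0.24). Its adjusted p was 0.00134 with DESeq2 and 0.0402 with the acinar covariate. Without the filter on low counts it was 8.39e-06, where 300 of 26297 tested genes were called. Trib3 did not pass with limma-voom (adjusted p = 0.101), the replicate block (0.0706), the ribosomal RNA covariate (1) or any library left out (0.182 to 0.353). Nor did it pass with RLE normalization (0.0941) or with acinar genes (0.093) or the ribosomal RNA locus (0.0944) removed. Phlpp2, a phosphatase that removes phosphate from AKT, had 16.2, 16.0 and 21.7 CPM in KO 1, 2 and 3, against 12.7, 12 and 13.7 CPM in controls 1, 2 and 3 (log2 fold change 0.49, SE 0.14, adjusted p = 0.515). Its value was 0.33 (SE 0.11) without KO 3 and 0.26 (SE 0.21) with the ribosomal RNA covariate. Tsc1, a subunit of the complex that restrains mTOR, was also above all controls in the 3 KO libraries (0.29, SE 0.09, adjusted p = 0.542). Eif4ebp1, a repressor of translation that mTOR inactivates, had a value of -0.70 (SE 0.29, adjusted p = 0.671) with overlapping groups, and was at -0.42 without KO 3 and -0.44 without control 1.

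Of the 22 FOXO factors and FOXO target genes 20 were tested, with 14 positive and 6 negative values and a median of 0.07. At an unadjusted p under 0.05 there were 5 higher and 1 lower in KO, beside 7.37% of all tested genes in either direction and 4.83% higher. Without overlap there were 4 higher and 1 lower, beside 13.9% of all tested genes in either direction and 7.94% higher. The list was chosen with earlier results of these data known, so these counts are not independent of those results. Cited2, a transcriptional co-regulator, had 43.7, 44.1 and 50.4 CPM in KO 1, 2 and 3, against 22.6, 21.4 and 31.7 CPM in controls 1, 2 and 3. The gap between the groups was wide, and the log2 fold change was 0.86 (SE 0.15, adjusted p = 0.114 by edgeR). Its adjusted p was 3.37e-04 with DESeq2, 0.0146 with the replicate block and 0.0148 with the acinar covariate. Without the filter on low counts it was 9.33e-10, where 300 of 26297 tested genes were called. With RLE normalization it was 0.113, and with acinar genes or the ribosomal RNA locus removed 0.115 and 0.12. The adjusted p was 0.141 with limma-voom, 1 with the ribosomal RNA covariate and 0.0384 to 0.635 with a library left out, lowest without control 3. It was 0.76 (SE 0.25) with the ribosomal RNA covariate and 0.78 without KO 3. Txnip, an inhibitor of thioredoxin that glucose induces in beta cells, had 182, 232 and 219 CPM in KO 1, 2 and 3, against 116, 131 and 176 CPM in controls 1, 2 and 3 (0.58, SE 0.16, adjusted p = 0.515). Ccng2, an atypical cyclin tied to cell-cycle arrest, had a value of 0.45 (SE 0.13, adjusted p = 0.515). Sesn3, a stress-response sestrin named after its values were seen because its groups did not overlap, had a value of 0.35 (SE 0.13, adjusted p = 0.639). Bcl6, a transcriptional repressor, went the other way, with 4.48, 1.81 and 3.61 CPM in KO 1, 2 and 3, against 7.13, 7.04 and 6.65 CPM in controls 1, 2 and 3 (log2 fold change -1.04, SE 0.26, adjusted p = 0.452). With the ribosomal RNA covariate Txnip was at 0.41 (SE 0.28), Ccng2 at 0.49 (SE 0.22) and Bcl6 at -0.64 (SE 0.41). Pck1 and G6pc, gluconeogenic FOXO targets of liver, had at most 3 counts in a library. Irs2 and Insr, themselves known FOXO targets, are described above.

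**Figure D5:**
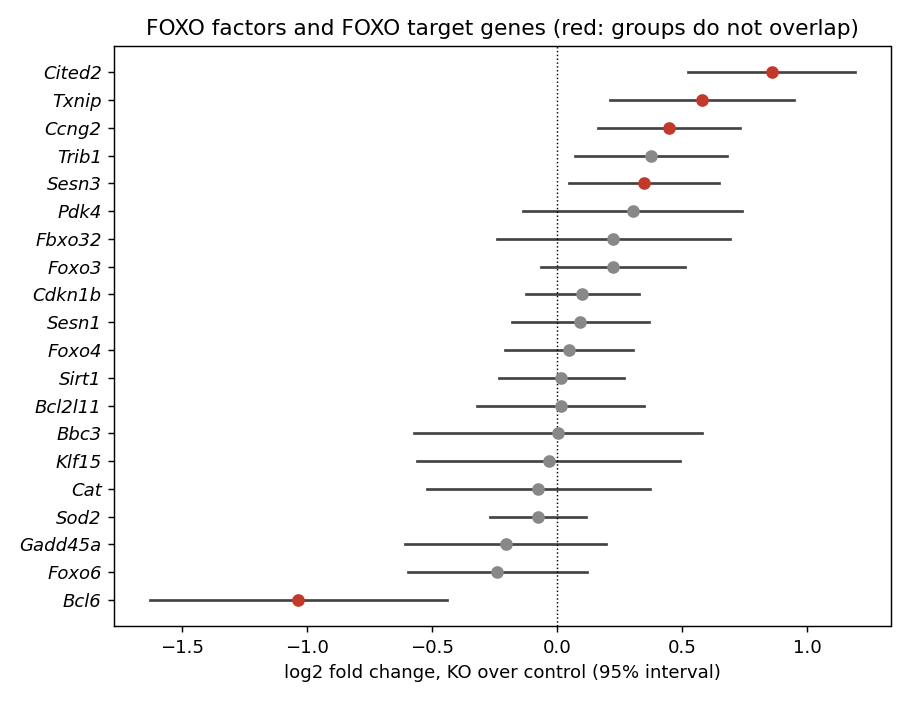
Log2 fold change, KO over control, of the 20 tested FOXO factors and FOXO target genes with 95% intervals, ordered from the most positive. Red points are genes whose groups do not overlap, Cited2 (0.86), Txnip (0.58), Ccng2 (0.45) and Sesn3 (0.35) above 0 and Bcl6 (-1.04) below it.

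For each of the 9 genes, the 2 genes of most similar pattern were taken by Pearson's r of log2 CPM over the 6 libraries, among 11319 protein-coding genes of sufficient level. These values are descriptions, since among so many genes high values arise over 6 points that share library composition. Irs2 was followed most closely by Abcc5 (r = 0.997) and Il6ra (r = 0.994), and Irs1 by Frs2 and Nsd2 (r = 0.994 each). For Insr these were Ptch1 (r = 0.995) and Stxbp4 (r = 0.994), and for Igf1r Samd4b (r = 0.990) and Tcf3 (r = 0.975). Orai2 was among the closest genes of both Akt1 (r = 0.994, after Bmp7 at 0.996) and Akt2 (r = 0.996, before Zfpm1 at 0.992). Pik3ca had the least close partners, Zmym6 (r = 0.963) and Fndc3b (r = 0.960). Foxo1 was followed by 2700049A03Rik (r = 0.995) and Patz1 (r = 0.992), and Igf2 by Def8 (r = 0.994) and Phactr3 (r = 0.986).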

How the data were processed

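The deposited values are unnormalized counts of reads over the exons of each gene, for 6 libraries, made by the authors with STAR 2.7.9 and featureCounts 2.0.0 on the builds GRCm38.p6 and mm10, per the submitters' processing notes. Annotation release, strand setting and handling of multiply matching reads: not given in the sources used here. Each of the 3 KO columns, unlike the control columns, carries an unexplained name ending, and any batch it stands for cannot be told apart from genotype. Identifiers were given symbols from a gene name table, by which 55141 of 55401 matched, and gene types came from GENCODE M21. One listed gene was matched by an older name.

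The test was edgeR 4.0.16 (R 4.3.3; glmQLFit and glmQLFTest) with TMM normalization, filterByExpr (minimum count 10, minimum total 15) and genotype as the only term, two-sided, with Benjamini-Hochberg adjustment over 14212 genes and a threshold of 0.05. Alternatives were RLE normalization, no filter, DESeq2 1.42.0, limma-voom (limma 3.58.1), a replicate block, acinar genes or the ribosomal RNA locus removed, each of these as a covariate, and each library left out in turn. Genes named from a list were up to 4 with the smallest p and a mean log2 CPM of at least 1. One gene that this rule names is not reported here. The own-exon lengths and the E-box were chosen after seeing the data. The 9 genes and all lists were chosen with earlier results of these data known. The code was tested on simulated data. No 2 libraries were duplicates: the closest pair differed by 14.4 in chi-square over degrees of freedom. Other steps used pandas 2.3.3 and matplotlib 3.10.9 in Python 3.11.15. Promoters came from RefSeq (GRCm38.p6).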

Additional observations from a re-analysis of the deposited data

How the results depend on the processing

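Irs1, Irs2, Igf1r and Akt1 kept their direction in all 15 alternatives, with log2 fold changes from 0.43 to 0.94, 0.26 to 0.80, -0.43 to -0.02 and -0.29 to -0.03. The signs of values near 0 turned. With the ribosomal RNA covariate Insr was at -0.14, Pik3ca at -0.086, Foxo1 at -0.0438 and Igf2 at -0.22, and with the acinar covariate Foxo1 was at -0.0101. With a library left out Insr ran from -0.0471 to 0.22, Pik3ca from -0.0498 to 0.088, Akt2 from -0.18 to 0.0146, Foxo1 from -0.057 to 0.0891 and Igf2 from 0.13 to 0.61. Of the 9 genes, 2 were called without the filter on low counts (Irs1, 0.77, adjusted p = 0.0025, and Irs2, 0.65, adjusted p = 1.98e-05), where 26297 genes were tested, and 1 with the replicate block (Irs2, 0.65, SE 0.10, adjusted p = 0.0481). Over all 15 alternatives the edgeR, DESeq2 or limma adjusted p of Irs2 ran up to 1. The labels do not say that the replicate numbers pair the libraries, and correlations between same-numbered libraries in their deviations were 0.16, -0.16 and 0.14, so the replicate block rests on a shared number only. DESeq2 gave Igf2 no adjusted p. Of the 77 listed genes, 6 were called without the filter, 2 with DESeq2, 2 with the acinar covariate, 1 with the replicate block and 0 to 1 with a library left out (Cited2 without control 3). Over all genes 10 were called, and 300 without the filter, 49 with DESeq2, 6 with limma-voom, 36 with the replicate block, 44 with the acinar covariate, 0 with the ribosomal RNA covariate (214 at an unadjusted p under 0.05) and 2 to 6 with a library left out, where fewer samples enter. Other causes were not tested. Depth limits Igf2 most, at 6 to 21 counts a library.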

Other observations

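Of 7 imprinted growth genes 4 were tested. Of these, 0 passed the adjusted threshold (edgeR), beside 0.0704% of all tested genes. An unadjusted p under 0.05 was reached by 0, beside 7.37% of all tested genes in either direction. With 4 genes, counts of 0 do not set them apart from those shares. Peg3, a paternally expressed zinc finger gene, had 741, 755 and 955 CPM in KO 1, 2 and 3, against 576, 669 and 723 CPM in controls 1, 2 and 3, a log2 fold change of 0.32 (adjusted p = 0.717 by edgeR, SE 0.15) with no overlap of the groups. It was at 0.19 without KO 3 and 0.18 with the ribosomal RNA covariate. Plagl1 had a value of 0.20 (SE 0.22), from 0.06 without control 3 to 0.40 without control 1, and Mest of -0.07 (SE 0.22), from -0.27 without control 3 to 0.05 without KO 2. H19, the maternally expressed neighbour of Igf2, and Igf2os had at most 3 counts in a library, and Dlk1 at most 8.

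Beyond beta and acinar cells, 5 alpha-cell markers summed to 15792, 15095 and 16006 CPM in KO 1, 2 and 3, against 13229, 16469 and 17533 CPM in controls 1, 2 and 3. Endothelial markers, 6 genes led by Flt1, summed to 387, 225 and 451 CPM in KO 1, 2 and 3, against 356, 401 and 429 CPM in controls 1, 2 and 3. The 13 marker lists had exact two-sided permutation p from 0.2 to 1, and adjusted p of at least 0.975. The adipocyte list was near 0, with at most 0.187 CPM in KO libraries and 0.0658 in controls, and Lep at 0 in all.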
